A study of Homo sapiens with 12 samples.

Results

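The regulators of G-protein signalling (RGS) examined here were RGS1, RGS2, RGS10, RGS13, RGS14, RGS16, RGS18 and RGS19, which are 8 of the 26210 genes in the deposited expression table. They were chosen by symbol and selected on their FPKM levels in these libraries, since RGS1 was known to be higher both in the Hodgkin lines and in PMA-treated cells. RNA-Seq of ribosomal RNA-depleted total RNA was available for 6 groups of human cell lines with 2 libraries each, 12 libraries in all. Of these, KM-H2, L1236 and L428 were classical Hodgkin lymphoma (cHL) lines grown in IMDM. Namalwa is a Burkitt lymphoma line and Reh a B-cell precursor leukaemia line, both grown in RPMI without any added agent. In the group called Reh + PMA, Reh cells received phorbol myristate acetate (PMA) at 2 ng per ml. PMA is a phorbol ester that activates protein kinase C, and which of the treatment times used in the study applied to these libraries is not given in the sources used here. No primary cells entered these measurements, each lymphoma type was represented by 1 to 3 lines, and nothing states that the libraries of a group came from separate cultures, so that p-values measure only the spread between duplicate libraries, which may be technical.

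RGS proteins switch off signals from G-protein coupled receptors. A ligand-bound receptor loads the G-protein alpha subunit with GTP, the alpha subunit separates from the beta and gamma subunits, and both parts act on effectors such as phospholipase C beta, adenylyl cyclase and phosphoinositide 3-kinase gamma. The RGS domain speeds up the hydrolysis of GTP by the alpha subunit and so shortens the signal. In B cells RGS1 and RGS13 are known to dampen the response to chemokines such as CXCL12, the ligand of CXCR4, and RGS13 is a known gene of germinal centre B cells.

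Levels were given in FPKM, in which fragments are scaled to the length of the gene and to the size of the library, so that levels of different genes can be compared. The spacing of the smallest values showed that the number of fragments differed between libraries, from 0.386 to 2.33 times that of Reh library 0, with KM-H2 library 0 the shallowest and L1236 library 1 the deepest. Here library 0 and library 1 are named after the suffix of the deposited columns. Across genes, the 2 libraries of a group correlated at r = 0.969 to 0.985 in Reh, Reh + PMA and Namalwa and at r = 0.906 to 0.922 in the cHL lines. The summed FPKM of 5 Hodgkin markers was 189 to 999 in the cHL libraries and at most 30.9 elsewhere. Of these markers, CCL22 was listed at 0 in KM-H2 and had 0.638 and 0.0541 FPKM in L428, against 0.334 and 0.253 in Namalwa. The CD30 gene TNFRSF8 had at least 19.1 FPKM in each cHL library and at most 0.505 in the others. Reh expressed the terminal transferase gene DNTT (87.9 and 103 FPKM) but had VPREB1 listed at 0. The PMA-responsive gene EGR1 was at 62.1 and 76.2 FPKM in Reh + PMA and at most 0.138 FPKM in untreated Reh. T-cell markers summed to 17.8 and 26.3 FPKM over 5 genes in KM-H2 (CD8A at 0) and to at most 0.170 elsewhere. The 5 myeloid markers summed to 28.3 and 34.7 FPKM in Reh, of which MPO had 24.8 and 32.0, to 9.05 and 15.6 in KM-H2 with MPO at 0, and to 7.96 and 8.40 in Reh + PMA. The 5 stromal and endothelial markers summed to 22.3 and 35.7 FPKM in L1236, with PECAM1 at 32.0 and 17.5, and to at most 3.72 elsewhere.

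Of the 8 genes, 4 form a cluster on chromosome 1 (hg19). RGS18 (192127592 to 192154945), RGS1 (192544893 to 192549154), RGS13 (192605268 to 192629441) and RGS2 (192778169 to 192781405) are all on the plus strand and, together with RGS21, make up the 5 protein-coding genes of a stretch of 653814 bases. RGS16 is elsewhere on chromosome 1 (182567758 to 182573524, minus strand), RGS14 is on chromosome 5 (176784925 to 176799597, plus strand), RGS10 on chromosome 10 (121259329 to 121302231, minus strand) and RGS19 on chromosome 20 (62704534 to 62711341, minus strand). All 4 cluster members lie within, or partly within, an annotated long non-coding RNA gene on the opposite strand. The libraries were stranded, but whether strand was used in counting is not given in the sources used here. No other annotated gene overlapped the other 4 members.

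The sequences of the 250 bases before the start of RGS1, RGS13 and RGS2 are shown because these neighbouring genes had the largest differences of the 8 members between PMA-treated and untreated Reh cells. They are from RefSeq (GRCh38.p14, plus strand), at chr1:192575523-192575772 for RGS1, chr1:192635897-192636146 for RGS13 and chr1:192808789-192809038 for RGS2, and capitals mark matches to the motifs described next.
RGS1: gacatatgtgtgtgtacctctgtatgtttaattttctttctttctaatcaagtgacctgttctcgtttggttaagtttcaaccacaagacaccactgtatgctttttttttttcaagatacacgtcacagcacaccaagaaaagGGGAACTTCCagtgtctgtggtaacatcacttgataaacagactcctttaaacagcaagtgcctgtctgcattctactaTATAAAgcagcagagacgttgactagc
RGS13: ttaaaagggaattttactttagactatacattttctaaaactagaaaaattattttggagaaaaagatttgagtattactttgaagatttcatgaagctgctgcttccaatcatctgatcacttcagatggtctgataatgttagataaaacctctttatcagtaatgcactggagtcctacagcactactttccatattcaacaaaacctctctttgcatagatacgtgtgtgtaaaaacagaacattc
RGS2: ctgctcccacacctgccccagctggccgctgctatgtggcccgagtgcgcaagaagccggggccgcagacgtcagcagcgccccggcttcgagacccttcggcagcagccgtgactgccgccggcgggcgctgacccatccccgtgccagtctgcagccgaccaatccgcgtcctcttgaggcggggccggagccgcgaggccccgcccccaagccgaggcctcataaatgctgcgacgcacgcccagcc
Both strands were searched for 4 motifs: an NF-kappaB motif of GGG and TTCC with any 3 bases between, an AP-1 motif written as TGANTCA, a cyclic AMP response element written as TGACGTCA, and a TATA box written as TATAAA. The RGS1 window held the NF-kappaB letters GGGAACTTCC beginning 106 bases before the start and TATAAA beginning 27 bases before it. The NF-kappaB letters occurred in 5.67% and TATAAA in 10.7% of the 35116 windows of the same length, and AP-1 and cyclic AMP response element letters in 6.57% and 1.65%. RGS13 and RGS2 held none of the 4, nor did RGS10, RGS14, RGS16 and RGS18, and 1 of the 2 RGS19 windows held an NF-kappaB match (GGAAGAACCC on the strand shown by RefSeq for that gene). Base composition also differed, with 39.2% G and C in the RGS1 window, 32% in RGS13, 34.8% in RGS18 and 72.8% in RGS2, against a median of 58% over all windows. A match of letters is a description of the sequence and no evidence of binding.

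RGS1 showed the widest range of the 8 genes. Its FPKM was 0.829 and 0.425 in Reh and 0.580 and 0.850 in Namalwa, and it was 303 and 356 in Reh + PMA. In the cHL lines it was 57.0 and 69.1 in KM-H2, 156 and 304 in L1236, and 115 and 337 in L428. Thus RGS1 was close to the lower limit in both untreated control lines and abundant in all 3 cHL lines. The libraries of Reh + PMA, L1236 and L428 overlapped in level, KM-H2 lay below them, and Reh and Namalwa overlapped at the bottom. In bulk RNA a smaller share of expressing cells and less RNA per cell cannot be told apart.

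RGS2, which acts mainly on the Gq class of alpha subunits, had a similar order at a smaller range. Its FPKM was 7.02 and 6.76 in Reh, 171 and 159 in Reh + PMA, and 11.3 and 12.1 in Namalwa. The cHL lines had 37.7 and 48.9 (KM-H2), 104 and 145 (L1236) and 23.0 and 59.0 (L428). Only KM-H2 and L428 overlapped among neighbours in this order, and untreated Reh was the lowest group. Across the 12 libraries, the log2 levels of RGS1 and RGS2 correlated at r = 0.921, which is a description over groups that share lines.

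RGS13 did not follow RGS1 although it is its nearest protein-coding neighbour. It was highest in Namalwa (71.2 and 55.9 FPKM) and Reh + PMA (61.4 and 46.7 FPKM), which overlapped. L1236 had 16.1 and 29.7 FPKM, L428 had 1.60 and 9.97, KM-H2 had 3.43 and 1.02, and untreated Reh had 0.605 and 0.387. RGS13 was therefore low in Reh, like RGS1, but high in Namalwa, where RGS1 was below 1 FPKM in both libraries.

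RGS16, a further small RGS protein that acts on the Gi and Gq classes, was also highest in Namalwa (46.6 and 76.5 FPKM), and these libraries overlapped those of L1236 (50.4 and 42.2 FPKM). Reh + PMA had 7.08 and 5.42 FPKM and all other libraries were below 5 FPKM, with L428 at 1.61 and 4.97, KM-H2 at 1.64 and 1.23, and Reh at 0.812 and 0.459. The log2 levels of RGS13 and RGS16 correlated at r = 0.814 over the 12 libraries, although the genes are far apart on chromosome 1.

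RGS18, known from platelets and megakaryocytes, stayed at or below 0.528 FPKM in every library and was not kept by the filter on low values, so that 7 of the 8 members could be tested. The step size of low values allowed its fragments to be recovered, and each was within 0.0088 of a whole number. These were 14 and 17 fragments in Reh + PMA, 0 and 1 in Reh, and none in Namalwa. The cHL libraries had 0 to 3 fragments each. RGS18 was thus detected above a few fragments only in the PMA-treated libraries, which were 1.57 and 1.67 times as deep as Reh library 0. L1236 library 1, the deepest at 2.33 times, had 1 fragment.

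RGS10, RGS14 and RGS19 were expressed in all groups. RGS10, a small Gi-directed member with a known role in microglia and macrophages, had 63.0 and 97.3 FPKM in KM-H2. Every other library had 17.4 to 46.1 FPKM, the lowest being L1236 (17.4 and 24.7), and L428, Namalwa and Reh differed little (35.3 and 30.2, 24.2 and 38.0, and 28.1 and 26.0). In Reh + PMA it was 46.1 and 38.9 FPKM.

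RGS14 also carries domains that bind Ras-like proteins and Gi alpha subunits without GTP turnover. It had 79.8 and 56.0 FPKM in KM-H2, 58.5 and 63.6 in L1236, and 29.9 and 19.0 in L428. In Namalwa it was 8.34 and 12.5 FPKM, in Reh 7.67 and 11.8, and in Reh + PMA 10.3 in both libraries. The order was thus KM-H2 and L1236, which overlapped, then L428, then all 3 non-Hodgkin groups together.

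RGS19, which binds Gi and Gz alpha subunits, was lower in all cHL libraries than in the others. It was 46.8 and 44.2 FPKM in Reh, 22.7 and 25.9 in Reh + PMA, and 14.5 and 27.1 in Namalwa. It was 11.3 and 8.18 in KM-H2, 9.90 and 11.6 in L1236, and 6.66 and 4.80 in L428. RGS19 was the only member with its highest level in untreated Reh.

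**Figure D1:**
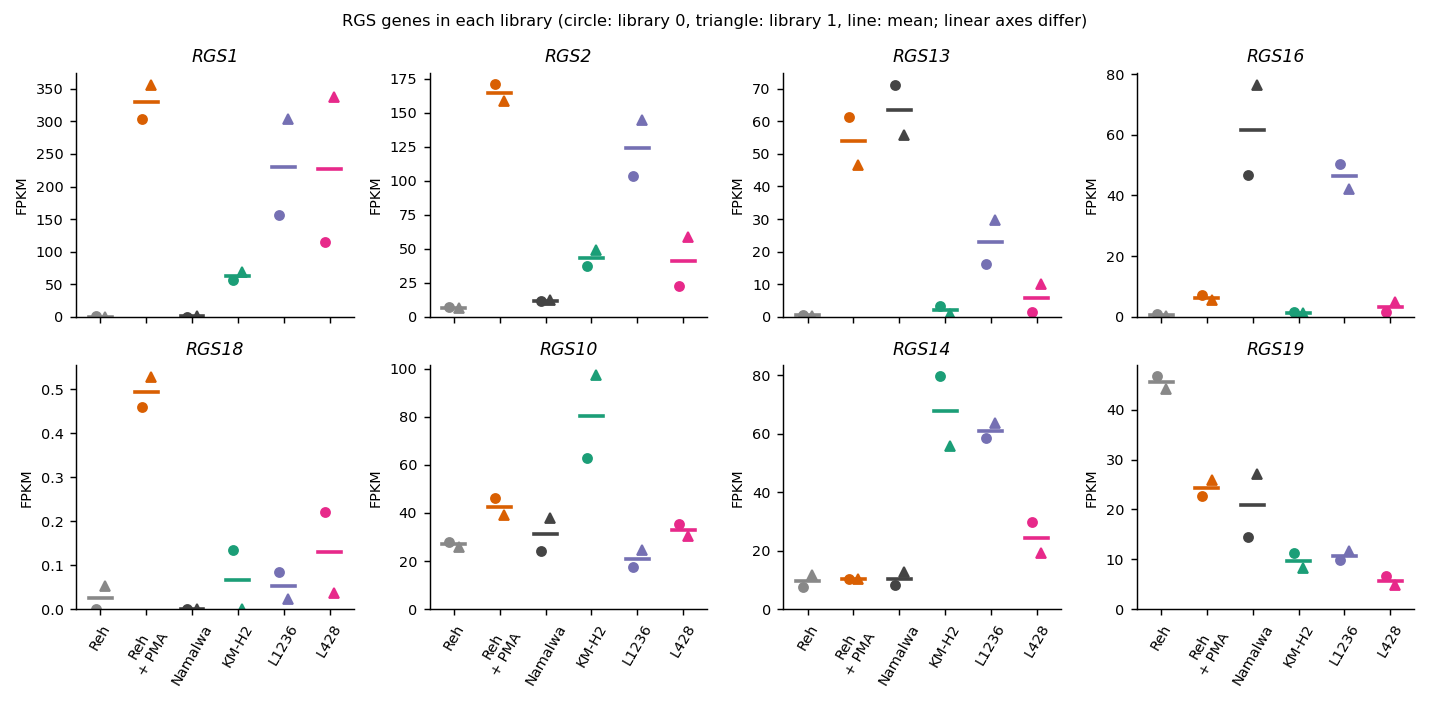
FPKM of the 8 RGS genes (y axis, linear, with a scale of its own in each panel) in the 6 groups of cell lines (x axis); circles are library 0, triangles library 1 and lines the mean of both. RGS1 was between 57.0 and 356 FPKM in the cHL and PMA-treated libraries and below 1 FPKM in Reh and Namalwa, whereas RGS19 was highest in untreated Reh.

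The comparisons that had been used to pick these genes are given as values without a test for the members. First, the 3 cHL lines were set against Reh and Namalwa. B-cell markers also differed in level between these libraries. The 6 mature B-cell markers summed to 857 to 1383 FPKM in the controls and to 0.773 to 35.5 in the cHL libraries, with MS4A1 at 0 in all 3 cHL lines and the highest sums in L1236, where PAX5 had 33.8 and 19.8 FPKM. The 5 B-cell precursor markers summed to 128 to 1197 FPKM in the controls and to at most 0.640 in the cHL libraries, with DNTT and VPREB1 at 0. Of the germinal centre markers, MME had at least 76.7 FPKM in each control library and at most 0.641 in the cHL libraries, and BCL6 had 28.2 to 51.5 FPKM in the controls and 1.87 to 24.1 in the cHL libraries. Their part in the differences of the members was not tested. RGS1 ranged from 57.0 to 337 FPKM with a median of 135 in the 6 cHL libraries and from 0.425 to 0.850 in the 4 control libraries. The mean log2(FPKM + 1) differed by 6.40, which was made up of 5.26 in KM-H2, 7.04 in L1236 and 6.90 in L428 against the same controls. On this scale the change of a gene near 0 is understated, and with 0.1 in place of 1 the 3 values became 6.39, 8.18 and 8.04. RGS2 ranged from 23.0 to 145 FPKM against 6.76 to 12.1 (log2 difference 2.56), and RGS14 from 19.0 to 79.8 against 7.67 to 12.5 (2.11). RGS19 was lower, at 4.80 to 11.6 against 14.5 to 46.8 (-1.73).

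For these 4 genes the cHL and control libraries did not overlap, which was also the case for 17.6% of the 14679 genes kept by the filter (9.5% higher and 8.06% lower in the cHL lines). RGS10, RGS13 and RGS16 overlapped, with log2 differences of 0.39, -0.45 and -0.37. The near-zero mean of RGS13 and RGS16 combined unlike lines. RGS16 was 2.24 higher in L1236 and differed by -2.04 in KM-H2 and -1.33 in L428, and RGS13 differed by 1.23 in L1236, -1.71 in KM-H2 and -0.87 in L428. Reh and Namalwa themselves differed strongly for both genes, so that their mean stands for neither line.

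Next, PMA-treated Reh was set against untreated Reh, and the same untreated libraries served as part of the controls above. The 5 B-cell precursor markers, of which VPREB1 was at 0 in both groups, summed to 1111 and 1197 FPKM in Reh and to 124 and 130.5 FPKM in Reh + PMA (RAG1 435 and 384 against 5.09 and 11.9). The 5 germinal centre markers, of which SERPINA9 was at 0 in both groups, summed to 148 and 165 FPKM in Reh and to 65.6 and 70.02 FPKM in Reh + PMA. Most of that sum in Reh was MME (123 and 118 FPKM, 7.72 and 11.1 in Reh + PMA), whereas BCL6 had 39.4 and 28.2 FPKM in Reh and 62.01 and 53.9 in Reh + PMA. The 6 mature B-cell markers summed to 857 and 950 FPKM in Reh and to 1089 and 1342 in Reh + PMA, with CD79A at 336 and 429 against 947 and 1102, CD79B at 394 and 414 against 39.0 and 86.2, and PAX5 at 64.1 and 52.5 against 11.3 and 17.4. The part of these markers in the differences of the members was not tested. The log2(FPKM + 1) difference was 7.67 for RGS1, 5.19 for RGS13, 4.39 for RGS2 and 2.15 for RGS16. It was 0.63 for RGS10, 0.10 for RGS14 and -0.88 for RGS19. Of the 7 members, 4 were higher by 2-fold or more, as were 11.9% of all genes kept. The libraries of the groups did not overlap for any member other than RGS14, but with 2 libraries a group this held for 72% of all genes. A difference of 2-fold or more upwards in both comparisons was seen for RGS1 and RGS2 and for 2.55% of all genes.

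The choice of the genes did not set the groups of the remaining comparisons against each other, and in these the members were tested. The same libraries entered that choice, so the p-values of the members are not independent of it. A gene was called where the limma adjusted p-value was below 0.05 and the difference at least 2-fold on the log2(FPKM + 1) scale. Between Namalwa and Reh, 19% of all genes were called and 3 of the 7 members. RGS13 and RGS16 were higher in Namalwa, by 5.42 (SE 0.63, adjusted p = 0.000184) and 5.22 (SE 0.39, adjusted p = 1.12e-05) on the log2 scale, and both calls were kept under every alternative run. RGS19 was lower in Namalwa by a log2 difference of -1.16 (SE 0.29, adjusted p = 0.0182). The RGS19 call was lost without Namalwa library 0 (-0.73, adjusted p = 0.118), Reh library 0 (-1.12, adjusted p = 0.105) or Reh library 1 (-1.20, adjusted p = 0.0793).

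The other 4 members were not called between Namalwa and Reh. RGS1 differed by 0.08 with a 95% interval of -0.98 to 1.15, RGS10 by 0.16 (-0.49 to 0.82), RGS14 by 0.09 (-0.59 to 0.78) and RGS2 by 0.69 (-0.15 to 1.54). All but the RGS10 and RGS14 intervals reach past a 2-fold difference. The control lines thus had a low RGS1 level in common and differed in RGS13 and RGS16.

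The 3 cHL lines differed from each other in their RGS genes. KM-H2 had less RGS1 than L428 (log2 difference -1.64, SE 0.47, adjusted p = 0.0233) and than L1236 (-1.78, SE 0.47, adjusted p = 0.0162). It had more RGS10 than L428 (1.24, SE 0.29, adjusted p = 0.00901) and L1236 (1.87, SE 0.29, adjusted p = 0.000894). KM-H2 exceeded L428 in RGS14 by 1.45 (SE 0.30, adjusted p = 0.00496) but differed from L1236 by 0.13 with an interval of -0.55 to 0.81. Of all genes, 26.6% were called between KM-H2 and L428, against 3 of 7 members, and likewise 26.6% between KM-H2 and L1236, against 5 of 7 members. The T-cell markers of KM-H2 (17.8 and 26.3 summed FPKM) accompanied these differences. Of the myeloid markers, CD14 had 5.79 and 4.56 FPKM in KM-H2 and at most 0.122 in L1236 and L428. ITGAM had 9.14 and 4.24 FPKM in KM-H2 and at most 0.693 in the same lines. MPO was at 0 in KM-H2, CSF3R at most 0.0816 and LYZ at most 0.591 FPKM. The part of these markers in the differences was not tested.

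RGS16, RGS13 and RGS2 were higher in L1236 than in both other cHL lines. RGS16 was higher in L1236 than in KM-H2 (log2 difference of KM-H2 from L1236 -4.28, SE 0.39, adjusted p = 2.84e-05) and than in L428 (L428 from L1236 -3.58, SE 0.39, adjusted p = 0.000126). The corresponding differences were -2.94 (SE 0.63, adjusted p = 0.00544) and -2.10 (SE 0.63, adjusted p = 0.0315) for RGS13 and -1.49 (SE 0.37, adjusted p = 0.0126) and -1.70 (SE 0.37, adjusted p = 0.00790) for RGS2. Deviations of cHL libraries with the same suffix correlated, and with the suffix as a replicate block in the cHL libraries alone RGS13 was no longer called between L428 and L1236 (-2.10, adjusted p = 0.0952). Of the 5 stromal and endothelial markers, PECAM1 (32.0 and 17.5 FPKM) and COL3A1 (3.51 and 4.69) were highest in L1236, where COL1A2 was at 0 and DCN at most 0.0889 FPKM. COL1A1 was lower in L1236 (0.201 and 0.0689 FPKM) than in KM-H2 (1.06 and 3.67) and L428 (0.609 and 0.916), and the part of these markers was not tested. RGS14 was lower in L428 than in L1236 (-1.32, SE 0.30, adjusted p = 0.00988). Between L428 and L1236, 21.9% of all genes were called and 4 of 7 members, and RGS1 was not called there (-0.14, interval -1.21 to 0.92). RGS19 was called between none of the 3 lines, with intervals of 0.0092 to 1.34 for KM-H2 against L428, -0.81 to 0.52 for KM-H2 against L1236, and -1.48 to -0.15 for L428 against L1236.

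**Figure D2:**
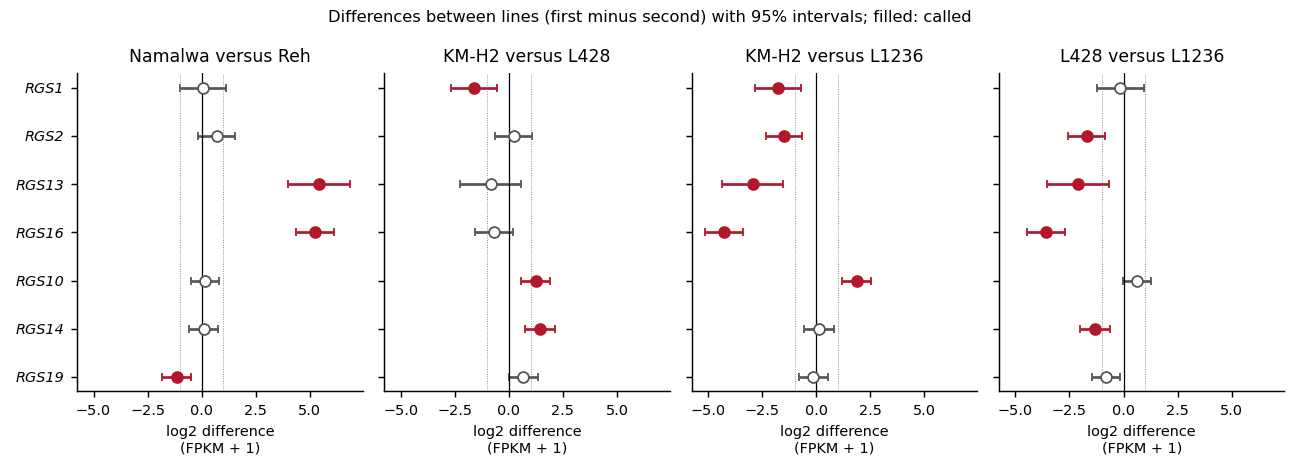
Difference in mean log2(FPKM + 1) of 7 RGS genes (x axis) for 4 pairs of cell lines, each as the line named first minus the line named next, with 95% intervals from limma; filled points were called and dotted lines mark 2-fold. RGS13 and RGS16 have the widest separation between Namalwa and Reh (5.42 and 5.22), and RGS16 between L1236 and the other cHL lines.

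Some of these calls were lost when 1 library was left out, which also leaves fewer libraries for the test. RGS1 in KM-H2 against L428 was no longer called without KM-H2 library 1 (-1.77, adjusted p = 0.0579), KM-H2 library 0 (-1.50, adjusted p = 0.1003) or L428 library 1 (-0.87, adjusted p = 0.141), and RGS1 in KM-H2 against L1236 without KM-H2 library 0 (-1.64, adjusted p = 0.0750) or L1236 library 1 (-1.30, adjusted p = 0.117). RGS10 in KM-H2 against L428 was not called without KM-H2 library 1 (0.93, adjusted p = 0.0602) or L428 library 1 (1.13, adjusted p = 0.0555). RGS2 lost its call against L1236 without L1236 library 1 (KM-H2 -1.25, adjusted p = 0.0856; L428 -1.46, adjusted p = 0.0565), and in KM-H2 also without KM-H2 library 0 (-1.31, adjusted p = 0.0691). RGS13 in L428 against L1236 lost its call without L1236 library 1 (-1.68, adjusted p = 0.160), L1236 library 0 (-2.52, adjusted p = 0.0531) or L428 library 0 (-1.06, adjusted p = 0.167). RGS14 in L428 against L1236 lost its call without L1236 library 1 (-1.26, adjusted p = 0.0546) or L428 library 1 (-1.004, adjusted p = 0.0708). Conversely, without L428 library 0, RGS13 (-1.88, adjusted p = 0.0220) and RGS16 (-1.30, adjusted p = 0.02001) were called lower in KM-H2 than in L428.

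In each cHL line, RGS1 was higher in library 1 than in library 0, and library 1 was also the deeper, at 0.587 against 0.386 in KM-H2, 2.33 against 0.617 in L1236 and 1.37 against 0.699 in L428, relative to Reh library 0. The part of depth in this was not tested. Between libraries of the same suffix, RGS1 differed by -1.002 and -2.27 for KM-H2 against L428, by -1.43 and -2.12 for KM-H2 against L1236, and by -0.43 and 0.15 for L428 against L1236. RGS16 differed by -4.28 in both for KM-H2 against L1236. RGS13 in KM-H2 against L428 went in opposite directions, at 0.77 and -2.44.

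Because FPKM is scaled to gene length, the levels of all 21 numbered RGS genes in the table could be added up in each library. This sum was 111 and 104 FPKM in Reh, 188 and 231 in Namalwa, and 647 and 678 in Reh + PMA. It was 272 and 299.6 in KM-H2, 420.4 and 632 in L1236, and 231 and 484 in L428. The 8 members made up 83.0% to 98.2% of it in each library. They had been selected on their FPKM levels in these libraries, so this share is no separate result. The gene with the largest share differed between groups, being RGS19 in Reh (42.3% and 42.5%), RGS1 in Reh + PMA (46.9% and 52.5%), L1236 (37.0% and 48.1%) and L428 (49.8% and 69.6%), RGS13 or RGS16 in Namalwa (37.8% and 33.1%), and RGS14 or RGS10 in KM-H2 (29.3% and 32.5%). No RGS gene led in all groups.

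**Figure D3:**
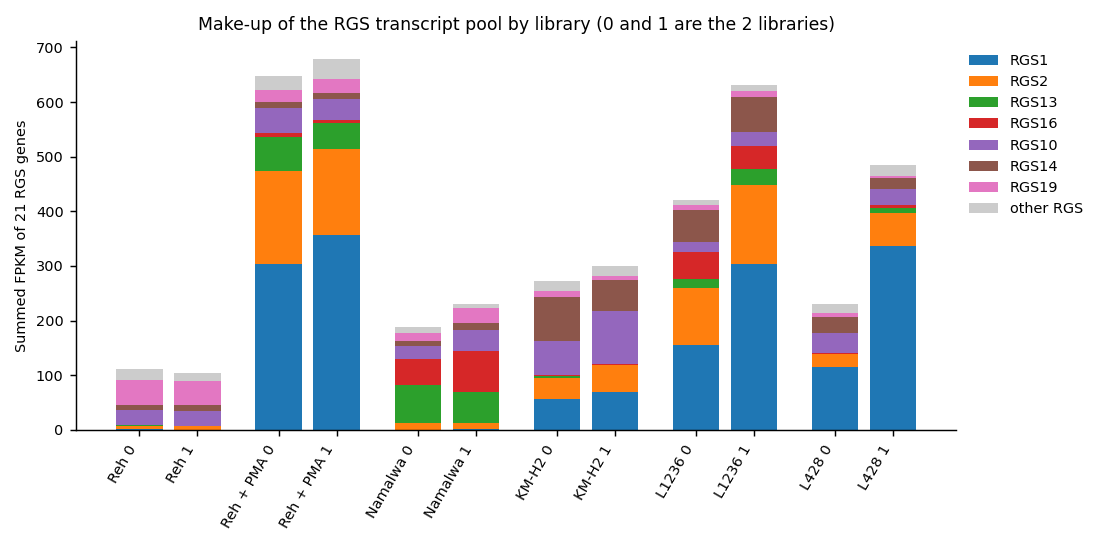
Summed FPKM of 21 RGS genes (y axis, linear) in each of the 12 libraries (x axis), divided by gene; grey holds the other RGS genes and RGS18, whose level was at most 0.528 FPKM. The sum was 104 to 111 FPKM in Reh, mostly RGS19 and RGS10, and 647 to 678 FPKM in Reh + PMA, mostly RGS1 and RGS2.

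Within the chromosome 1 cluster, RGS21 was listed at 0 in all but L428 library 0 (1.08 FPKM). The nearest protein-coding gene before the cluster, BRINP3, was listed at 0 in Reh, Reh + PMA, Namalwa and L428 and reached 1.85 FPKM in KM-H2. The gene after it, UCHL5, which encodes a proteasome-associated deubiquitinase, was expressed in all groups (10.1 to 26.7 FPKM). UCHL5 was called higher in Reh + PMA (1.11, SE 0.34, adjusted p = 0.0360), a call that was lost on leaving out Reh library 0 (1.13, adjusted p = 0.131), Reh library 1 (1.09, adjusted p = 0.137), Reh + PMA library 0 (0.92, adjusted p = 0.194) or Reh + PMA library 1 (1.30, adjusted p = 0.0703). It was not called between cHL and control lines (0.19, SE 0.22, adjusted p = 0.501). Beyond BRINP3, the phospholipase gene PLA2G4A had 188 and 232 FPKM in L428 and was called higher in the cHL lines (4.71, SE 0.22, adjusted p = 3.14e-07), though not with 1 mean per line (adjusted p = 0.316), and it was listed at 0 in Reh + PMA. These genes were looked at for their position. Between Reh + PMA and Reh, the log2 differences of RGS1, RGS13 and RGS2 were thus 4.39 to 7.67, and those of BRINP3 and UCHL5 0 and 1.11. In Namalwa RGS13 was the highest gene of the cluster, followed by RGS2 (11.3 and 12.1 FPKM).

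**Figure D4:**
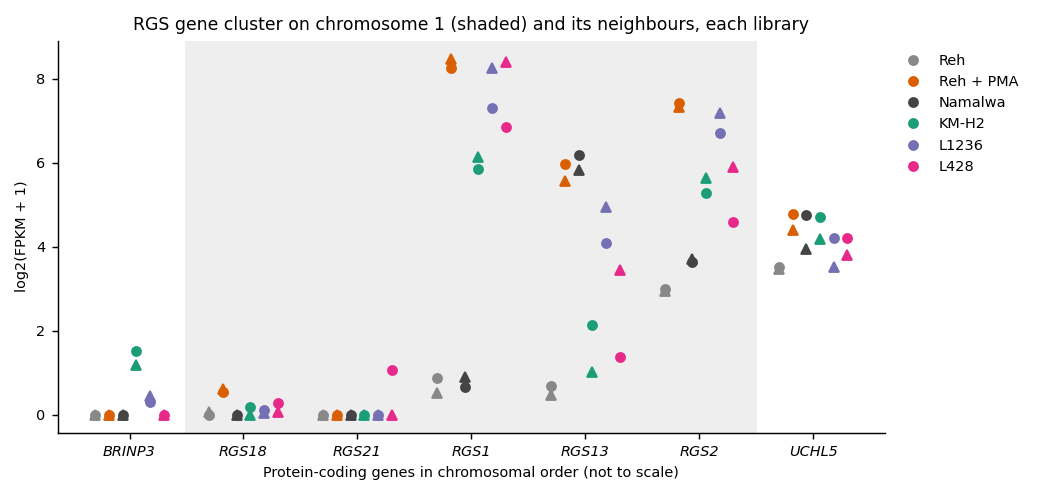
log2(FPKM + 1) of each library (y axis) for the 5 protein-coding genes of the RGS cluster on chromosome 1 (shaded) and the neighbour on either side, in chromosomal order without scale; circles are library 0 and triangles library 1. RGS1, RGS13 and RGS2 separate Reh + PMA from Reh, and Namalwa is high in RGS13 but low in RGS1.

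Of the 13 other numbered RGS genes, 4 were kept by the filter (RGS3, RGS5, RGS9 and RGS12). RGS3 rose in Reh + PMA, to 13.2 and 21.7 FPKM from 3.78 and 1.81 (log2 difference 2.29, SE 0.39, adjusted p = 0.00265). RGS9, best known from photoreceptors and striatal neurons, was highest in L428 (11.99 and 13.7 FPKM), above KM-H2 (KM-H2 minus L428 -3.20, adjusted p = 3.18e-05) and above L1236 (L428 minus L1236 1.64, adjusted p = 0.00227, but 1.87 and adjusted p = 0.0602 with a pseudocount of 0.1). RGS12, a large relative of RGS14, had 8.46 and 7.87 FPKM in KM-H2, 9.60 and 8.91 in Reh, and 0.138 and 0.147 in L428, so that KM-H2 exceeded L428 by 3.003 (adjusted p = 2.46e-06). RGS12 was called lower in the cHL lines as a group (-1.04, SE 0.11, adjusted p = 5.17e-05), but not without Reh (-0.12, adjusted p = 0.538). KM-H2 alone was higher than the mean of the controls (0.77, adjusted p = 0.00267). Its libraries lay above those of Namalwa (1.78 and 1.88 FPKM) but below those of Reh. RGS5 was not called in any of the 6 comparisons.

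The partners of the RGS proteins were examined in lists of G-protein subunits, receptors, effectors and other proteins that carry an RGS homology or G-protein binding domain. Between Reh + PMA and Reh, 22.2% of all genes were called. Of 12 alpha subunit genes tested, 5 rose and none fell. The Gi genes GNAI3 (27.8 and 28.1 to 151 and 97.7 FPKM, log2 difference 2.08, SE 0.32, adjusted p = 0.00147), GNAI2 (1.13, adjusted p = 0.0296) and GNAI1 (1.10, adjusted p = 0.0172) were among them. The GNAI2 call was lost without Reh library 0 (1.01, adjusted p = 0.153), Reh library 1 (1.25, adjusted p = 0.0852) or Reh + PMA library 0 (0.88, adjusted p = 0.185), and that of GNAI1 without the same libraries (1.19, 1.01 and 0.59, adjusted p = 0.0618, 0.0954 and 0.0515). Quantile normalisation also ended both calls (0.89, adjusted p = 0.0788 and 0.97, adjusted p = 0.0187). The median of the 12 genes was 0.19, against -0.03 over all genes.

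Of 12 beta and gamma subunit genes tested, 5 rose and 1 fell with PMA (median -0.02). The gamma subunit gene GNG11 rose from 35.2 and 32.8 FPKM to 1363 and 704 FPKM (log2 difference 4.81, SE 0.62, adjusted p = 0.000643). Of 15 receptors tested, 3 rose and 3 fell (median -0.08). The chemokine receptor CXCR4 fell from 134 and 135 to 6.90 and 12.5 FPKM (-3.71, SE 0.32, adjusted p = 7.04e-05), and the sphingosine-1-phosphate receptor S1PR4 fell from 82.9 and 91.9 to 20.5 and 13.1 FPKM (-2.34, adjusted p = 0.000253). RGS1 and RGS13, known to act on CXCR4 signals, were thus high in the libraries in which CXCR4 itself was lowest. Namalwa, with RGS13 high and RGS1 low, had the highest CXCR4 (223 and 172 FPKM). The levels did not run opposite across all groups. CXCR4 was 46.0 and 41.7 FPKM in KM-H2, 53.5 and 74.7 in L1236, and 105 and 172 in L428, where RGS1 was 57.0 to 337 FPKM. Untreated Reh, with RGS1 and RGS13 both below 1 FPKM, had CXCR4 at 134 and 135 FPKM.

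Among 17 genes with an RGS homology or G-protein binding domain, 3 rose and 1 fell with PMA (median -0.03). G-protein coupled receptor kinases mark activated receptors for arrestin. GRK5 rose by 3.24 (1.41 and 1.04 to 17.1 and 23.1 FPKM, SE 0.27, adjusted p = 5.99e-05), and the kinase gene ADRBK1, also known as GRK2, fell by 2.66 (209 and 220.3 to 30.2 and 36.5 FPKM, SE 0.22, adjusted p = 4.89e-05). Of 10 effectors tested, the adenylyl cyclase gene ADCY6 rose (1.97, adjusted p = 0.000166) and the phospholipase C gene PLCB2 fell (-1.18, adjusted p = 0.0106), with a median of 0.02. The PLCB2 call was lost without Reh library 1 (-1.05, adjusted p = 0.0737) or Reh + PMA library 0 (-0.86, adjusted p = 0.0843).

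Between the cHL lines and Reh and Namalwa, 24.6% of all genes were called, with p-values that reflect duplicate libraries and not the spread between lines. Of 15 receptors, 5 were higher and 4 lower in the cHL lines (median 0.26, against 0.02 over all genes). The chemokine receptor CCR7 had 22.8 to 303 FPKM in the cHL libraries and at most 1.59 in the controls (log2 difference 5.67, SE 0.13, adjusted p = 1.93e-08). The prostaglandin E2 receptor gene PTGER4 differed by 4.59 (SE 0.22, adjusted p = 3.61e-07) and S1PR4 by -4.42 (SE 0.16, adjusted p = 1.01e-07). With 1 mean per line, which sets the 3 lines against the 2 controls, PTGER4 was the only one of 20 pathway genes named by rule that was still called (adjusted p = 0.0427), and CCR7 (adjusted p = 0.109) and S1PR4 (adjusted p = 0.227) were not.

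Of 12 alpha subunit genes, 1 was higher and 3 were lower in the cHL lines (median -0.45), but 3 of these 4 did not hold their direction across lines. Without Reh, GNA15 was higher (2.18, adjusted p = 3.14e-05) and GNAI1 differed by 0.0035, and GNA12 differed by -0.47 in KM-H2 alone. GNA13, an alpha subunit gene, had 18.8 to 24.9 FPKM in the cHL libraries and 43.2 to 70.7 in the controls (-1.22, SE 0.14, adjusted p = 6.31e-05). It was under 2-fold without Namalwa (-0.98, adjusted p = 0.00133). Of 17 genes with an RGS homology or G-protein binding domain, 3 were higher and 2 lower (median 0.32), of which GPSM1 turned to 0.88 (adjusted p = 0.0193) without Reh and GRK5 to -0.027 in L428 alone. Of 12 beta and gamma subunit genes, 1 was higher and 3 were lower (median -0.09). GNG7 was at most 0.259 FPKM in the cHL libraries and 6.79 to 12.7 in the controls (-3.22, SE 0.11, adjusted p = 8.25e-08), and GNG2 was higher (2.82, SE 0.16, adjusted p = 1.001e-06). None of 10 effectors was higher and 3 were lower (median -0.54), among them ADCY7 (-2.22, SE 0.23, adjusted p = 4.51e-05) and PIK3CG, which was higher than the controls in L428 alone (1.35, adjusted p = 0.00973). None of GNA13, GNG7, GNG2 and ADCY7 was called with 1 mean per line (adjusted p = 0.197, 0.0586, 0.316 and 0.178).

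In the comparisons in which members were tested, genes of the partner lists were also called between lines. Between Namalwa and Reh the share called over all genes was 19%. Namalwa differed from Reh in 4 of 12 alpha subunit genes, 1 higher and 3 lower, with the largest difference in GNA15 (107 and 127 FPKM in Reh, 0.144 and 0.109 in Namalwa, -6.71, adjusted p = 2.69e-07), GNAQ listed at 0 in both Namalwa libraries (15.5 and 17.8 FPKM in Reh) and GNAZ, the Gz gene, higher (3.70, adjusted p = 2.12e-06). Of 10 effectors, 5 were lower and none higher in Namalwa (median -1.04), with PLCB1 listed at 0 there (3.70 and 3.25 FPKM in Reh). Of 15 receptors, 5 were higher and 3 lower in Namalwa, with S1PR2 higher (2.45, adjusted p = 2.89e-05) and LPAR6 lower (-3.58, adjusted p = 0.000173). Among the cHL lines GNAQ was called between L1236 and each of the others (-3.91 for KM-H2, adjusted p = 3.78e-06, and -3.97 for L428, adjusted p = 5.00e-06). The phosphoinositide 3-kinase gene PIK3CG was far higher in L428 than in L1236 (5.33, adjusted p = 1.03e-05) and KM-H2 (KM-H2 minus L428 -3.94, adjusted p = 5.93e-05). GNA15, of the same Gq class as GNAQ, was higher in KM-H2 than in L1236 (2.21, adjusted p = 0.000129).

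The genes most like each member over the 12 libraries were taken by Pearson correlation of log2(FPKM + 1) among 11647 genes with a largest group mean of at least 5 FPKM. These are descriptions, since the points share lines and lie in a few clusters. For RGS1 they were the non-coding RNA LINC00152 (r = 0.967), the stress-response gene PPP1R15A (r = 0.964), TMBIM6 (r = 0.959), PDP1 (r = 0.941) and CMTM6 (r = 0.936). Mean FPKM of LINC00152 was listed at 0 in Reh and Namalwa, 57.7 in Reh + PMA, and 26.7, 30.3 and 62.2 in KM-H2, L1236 and L428. For RGS2 the leading genes were the immediate early gene IER5 (r = 0.981) and the MAP kinase phosphatase gene DUSP5 (r = 0.924).

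For RGS13 they were CAMK2D (r = 0.938), SNORA2B (r = 0.911) and ZNF655 (r = 0.902), and for RGS16 RNVU1-19 (r = 0.955), ZNF532 (r = 0.949) and USP53 (r = 0.929). ZNF532 had a mean of 11.7 FPKM in Namalwa and 8.86 in L1236 and at most 0.567 in the other groups, the same groups in which RGS16 was high. RGS14 was followed by the collagen receptor kinase gene DDR2 (r = 0.984), PPAP2B (r = 0.978) and the haem oxygenase gene HMOX1 (r = 0.977), and DDR2 had 14.9, 16.8 and 3.11 FPKM in KM-H2, L1236 and L428 and at most 0.219 elsewhere. RGS10 was most like TRIM3 (r = 0.942), ARL1 (r = 0.940) and FAM104B (r = 0.930), all of them highest in KM-H2. RGS19 was most like the B-cell adaptor gene LAT2 (r = 0.951), ZNF788 (r = 0.942) and RAVER2 (r = 0.942), and the group means of LAT2 had the same order, from 164 FPKM in Reh to 0.560 in L428.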

How the data were processed

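RNA-Seq values of 12 libraries were analysed, 2 in each of 6 groups taken from the labels. The authors deposited 1 table of FPKM values, made per the labels with TopHat2 2.0.11 and Cuffnorm 2.2.1 on hg19, while the annotation and the library normalisation option are not given in the sources used here. Total counts were not used here, so depth was only estimated relative to Reh library 0 from the spacing of FPKM values up to 0.5 (steps matched within 0.02 on the log2 scale). Illumina HiSeq and NextSeq instruments were both used in the study, and which library was run on which is not given in the sources used here. Column suffixes 0 and 1 name the libraries and could not be tied to the replicate numbers of the labels.

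Genes with at least 1 FPKM in at least 2 libraries (14679 of 26210) were tested with limma 3.58.1 in R 4.3.3 (empirical Bayes with trend) on log2(FPKM + 1), with 1 mean per group over all 12 libraries and Benjamini-Hochberg adjustment over all genes kept. A gene was called at an adjusted p below 0.05 and a difference of 2-fold or more. The procedure was tested on simulated data. Intervals are 95% limma intervals. The members, gene lists and comparisons were chosen with earlier results of these data known. From each list, up to 4 called genes with the largest difference per comparison could be named. Alternatives were another pseudocount (0.1), no filter, median ratio or quantile rescaling, a replicate block, no fold minimum, each library left out, fewer groups, and line means. Members were described without a test in the comparisons that had been used to pick them. A few genes that these rules would name are not reported here.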

Additional observations from a re-analysis of the deposited data

Results flagged for a closer look

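The differences of the cHL lines from the shared control lines were unlike for 6 of the 7 members tested, since the lines differed from each other directly in 12 of 21 tests by limma (adjusted p below 0.05 and 2-fold or more), where 26.6%, 26.6% and 21.9% of all genes were called between KM-H2 and L428, KM-H2 and L1236, and L428 and L1236. KM-H2 minus L428 was -1.64 for RGS1, 1.24 for RGS10 and 1.45 for RGS14 on the log2 scale. KM-H2 minus L1236 was -1.78 for RGS1, -1.49 for RGS2, 1.87 for RGS10, -2.94 for RGS13 and -4.28 for RGS16. L428 minus L1236 was -1.70 for RGS2, -2.10 for RGS13, -1.32 for RGS14 and -3.58 for RGS16. With the suffix as a replicate block in the cHL libraries alone, this RGS13 difference was not called (adjusted p = 0.0952). Both libraries of each line lay on the same side in each of these 12 differences, which is no further support. With 2 libraries a group, this also held for 72% of all genes between Reh + PMA and Reh. The share over all genes was not counted for the pairs of cHL lines.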

How the results depend on the processing

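Of 28 tests of a member, 15 passed both criteria, and 7 of these did so under every alternative run. The 15 had 297 alternative fits, of which 274 kept direction and call, 23 lost the call and none turned the direction. No scaling moved the median of all genes by over 0.1 (log2). With the column suffix as a replicate block, no member call changed, and 2866 genes were called between Namalwa and Reh (2792 without), 3999 between KM-H2 and L428 (3904), 3991 between KM-H2 and L1236 (3911), 3279 between L428 and L1236 (3216), 3643 between cHL and control lines (3614) and 3456 between Reh + PMA and Reh (3265). Deviations from the group mean in libraries of the same suffix correlated at r = 0.301 to 0.681 between cHL lines and at -0.04 to 0.36 in the 12 other pairs. The ranges overlap, since Reh with Namalwa (0.357) was above KM-H2 with L428 (0.301). These values therefore do not settle which libraries are paired. Beyond the block over all libraries, a pairing by suffix was tried among the cHL libraries only, and not for Reh and Namalwa alone. A block within the cHL libraries alone, chosen after seeing the data, ended the call of RGS13 between L428 and L1236 (-2.10, adjusted p = 0.0952) and changed no other member call. Fitting only the groups compared ended the calls of RGS1 in KM-H2 against L428 (adjusted p = 0.0867) and of RGS2 and RGS13 in L428 against L1236 (adjusted p = 0.0696 and 0.106), and no filter ended that of RGS13 (adjusted p = 0.0551). Between cHL and control lines, 8126 genes were called with no fold minimum and 80 with 1 mean per line. Leaving out 1 library gave 2077 to 2841, 3249 to 4238, 3253 to 3969, 2511 to 3306, 3416 to 3798 and 1968 to 3395 genes in the same order of comparisons, the last falling to 1968 without Reh + PMA library 0 and to 2092 without Reh library 0. Of the 13 member differences that were not called, 8 turned direction when 1 library was left out. They then ranged from -0.10 to 0.26 for RGS1, -0.15 to 0.48 for RGS10 and -0.19 to 0.38 for RGS14 between Namalwa and Reh, with negative values without Namalwa library 1 (RGS1 -0.03, RGS10 -0.15, RGS14 -0.18), Reh library 1 (RGS1) or Reh library 0 (RGS14). In KM-H2 against L428 they ranged from -0.45 (without L428 library 0) to 0.87 for RGS2 and from -1.88 to 0.20 (without L428 library 1) for RGS13. In KM-H2 against L1236 they ranged from -0.12 (without KM-H2 library 0) to 0.38 for RGS14 and from -0.35 to 0.069 (without KM-H2 library 1) for RGS19. In L428 against L1236, RGS1 ranged from -0.91 to 0.63, with positive values without L1236 library 1 (0.34) or L428 library 0. For partner genes between cHL and control lines, direction turned without Reh (GNAI1 0.0035, GNA15 2.18, GPSM1 0.88), with KM-H2 alone (RGS12 0.77, GNA12 -0.47, GNA15 0.99) and with L428 alone (GRK5 -0.027, PIK3CG 1.35). The causes of these changes were not tested. Depth is known only in relative terms.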
